A study of Mus musculus with 2 samples.

Results

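The genes of glutathione peroxidases 1 to 4 (Gpx1, Gpx2, Gpx3 and Gpx4) and of peroxiredoxins 1 to 6 (Prdx1 to Prdx6) are described here in mouse sigmoid colon, the part of the large bowel that leads into the rectum. They were chosen by name, and all 10 were found by gene identifier among the 43346 Ensembl genes of the deposited tables. The tissue came from 1 female C57BL/6J mouse aged 10 weeks, with no treatment or altered allele named in the labels. Polyadenylated RNA of this mouse was sequenced in 2 technical libraries, called library 1 and library 2 after their replicate numbers, and library 2 was made in 2015. There was 1 group and no second condition, so each SD is over n = 2 technical libraries and covers no variation between mice.

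Both families reduce hydrogen peroxide and organic hydroperoxides, the by-products of oxygen metabolism that otherwise oxidise lipids, proteins and DNA. The glutathione peroxidases studied here carry selenocysteine in the active site and take electrons from glutathione, which glutathione reductase restores with NADPH. Peroxiredoxins use a reactive cysteine, and most are restored by thioredoxin, thioredoxin reductase and NADPH. Gpx2 is known as the glutathione peroxidase of the gastrointestinal epithelium, whose surface lies close to the bacteria of the gut.

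Selenocysteine is encoded by TGA, usually a stop codon, and sets the glutathione peroxidases apart from the peroxiredoxins in sequence. GENCODE M21 annotates a selenocysteine codon in 24 mouse genes, among them all 4 glutathione peroxidases and 0 of the 6 peroxiredoxins. The coding stretch around it, 5′ to 3′ with the TGA in capitals, is shown because it is the sequence feature that divides the members.
Gpx1: tgtcgcgtctctcTGAggcaccacgatccg
Gpx2: tgtggcgtcactcTGAggaacaactacccg
Gpx3: cgtagccagctacTGAggtctgacagacca
Gpx4: cgtggcctcgcaaTGAggcaaaactgacgt
On GRCm38, the assembly also called mm10, the TGA of Gpx1 lies at chr9:108339451-108339453 on the plus strand, in exon 1 of 2, and is codon 47. That of Gpx2 lies at chr12:76795256-76795258 on the minus strand, in exon 1 of 2, and is codon 40. That of Gpx3 lies at chr11:54907256-54907258 on the plus strand, in exon 2 of 5, and is codon 73. That of Gpx4 lies at chr10:80054737-80054739 on the plus strand, in exon 3 of 7 of transcript Gpx4-202, and is codon 73 there. Gpx1 and Gpx2 shared 24 of the 30 bases, the most of any pair, and Gpx1 and Gpx3 shared 14, as did Gpx2 and Gpx3. All 4 genes had the same base at 12 positions. These counts include the TGA itself, on which the stretches were lined up.

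Library 1 held 25843064 expected counts (estimated reads per gene) and library 2 held 20681574. The mitochondrially encoded genes were 24.1% of all counts in library 1 (24.0 to 24.1%, Wilson interval at 95% confidence), against 5.59% in library 2 (5.58 to 5.60%), and these intervals cover counting error only. In TPM, the deposited abundance corrected for transcript length, they took 44.2 and 12.6%, and the 21461 nuclear protein-coding genes together reached 313320 TPM in library 1 and 753435 TPM in library 2. Colonocyte marker genes summed to 3611 and 14877 TPM in libraries 1 and 2, and goblet cell marker genes to 4632 and 28589 TPM. Levels are given in deposited TPM and, where named so, in TPM rescaled so that the nuclear protein-coding genes have the same sum in each library. In bulk tissue, fewer cells of a type and less RNA per cell cannot be told apart.

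Peroxiredoxin RNA far outweighed glutathione peroxidase RNA in library 1 and did so by less in library 2. The 6 peroxiredoxins had a sum of 1720 TPM in library 1 and of 3649 in library 2, with a mean of 2684 ± 1364 (SD, n = 2). The 4 glutathione peroxidases summed to 22.3 and 885 TPM (454 ± 610, SD, n = 2). Over nuclear protein-coding genes the peroxiredoxin sum was 5490 TPM in library 1 and 4843 in library 2, and the glutathione peroxidase sum was 71.1 and 1175 TPM. Thus the peroxiredoxin sum was higher in library 2 on the deposited scale and lower there on the rescaled one, while the glutathione peroxidase sum was higher in library 2 on both. The members together took 0.147% of the counts of library 1 (0.146 to 0.149%) and 0.322% of those of library 2 (0.320 to 0.325%).

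**Figure D1:**
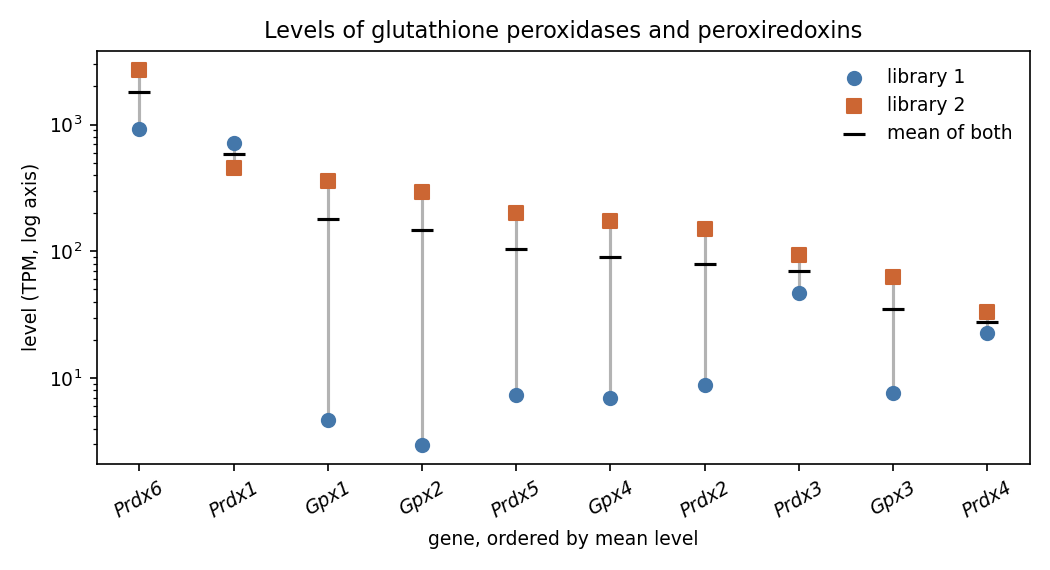
TPM of the 10 members on a log axis, with 1 point for each of the 2 technical libraries. Prdx6 stands highest in both libraries, at 924 and 2717 TPM, while Gpx1, Gpx2, Gpx4 and Prdx5 lie below 8 TPM in library 1 and above 170 TPM in library 2.

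Gpx1, the widely expressed cytosolic and mitochondrial member, stood at 4.67 TPM in library 1 and at 358 in library 2, with a mean of 181 ± 250 (SD, n = 2). Gpx2, the epithelial member, stood at 2.98 and 292 TPM (148 ± 204). Gpx4, which reduces lipid hydroperoxides within membranes and protects cells from ferroptosis, stood at 6.98 and 173 TPM (89.8 ± 117). These 3 genes were among the 4 lowest members in library 1 and among the 6 highest in library 2. Gpx3, the secreted enzyme of blood plasma, stood at 7.64 and 62.9 TPM (35.3 ± 39.1). It was the highest glutathione peroxidase in library 1, with 34.3% of the summed TPM of the 4 genes, and the lowest in library 2, with 7.10%. Gpx1 took 20.97 and 40.4% of that sum, and Gpx2 took 13.4 and 32.99%. Behind the library 1 values were 98 expected counts for Gpx1, 63 for Gpx2, 174 for Gpx3 and 68 for Gpx4. Library 2 held 3538, 3727, 1274 and 1819 counts of the same genes.

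Prdx6 and Prdx1 made up most of the RNA of the members. Prdx6, the family member with 1 active cysteine, which draws on glutathione and also has phospholipase activity, stood at 924 TPM in library 1 and at 2717 in library 2, with a mean of 1820 ± 1268 (SD, n = 2). Prdx1, a cytosolic thioredoxin-dependent enzyme, stood at 711 and 454 TPM (583 ± 181). Both genes together held 93.8% of the members' TPM in library 1 and 69.95% in library 2. Among the 21461 nuclear protein-coding genes Prdx6 ranked 18 in library 1 and 14 in library 2, so it was near the top of the transcriptome in both. Prdx1 ranked 26 and 231. Their counts were 24126 and 42557 for Prdx6 and 11375 and 6650 for Prdx1.

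The other peroxiredoxins were far below Prdx1 in library 1. Prdx3, the mitochondrial member, stood at 46.96 TPM in library 1 and at 94.2 in library 2, with a mean of 70.6 ± 33.4 (SD, n = 2). Prdx4, the member of the endoplasmic reticulum, stood at 22.6 and 33.4 TPM (27.95 ± 7.64). Over nuclear protein-coding genes both were lower in library 2, at 149.9 and 125.1 TPM for Prdx3 and 72.0 and 44.3 TPM for Prdx4. Prdx2, a cytosolic enzyme abundant in red blood cells, stood at 8.86 and 150 TPM (79.2 ± 99.5). Prdx5, found in mitochondria, peroxisomes and cytosol, stood at 7.34 and 200.3 TPM (104 ± 136). Prdx2 and Prdx5 were low in library 1 and above Prdx3 and Prdx4 in library 2. Their share of the peroxiredoxin TPM was 0.515 and 0.427% in library 1 and 4.10 and 5.49% in library 2.

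**Figure D2:**
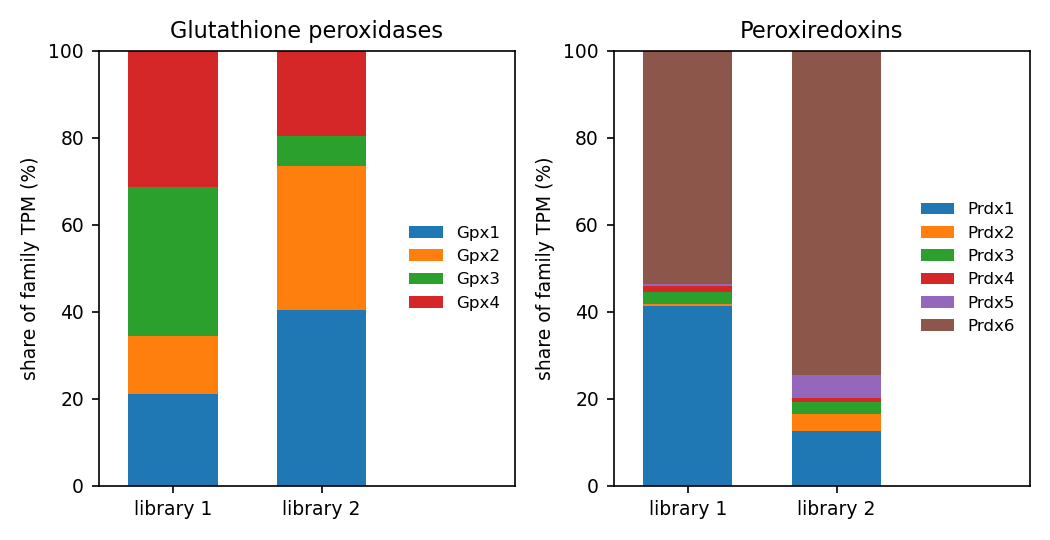
Share of each gene in the summed TPM of its family, in percent, for libraries 1 and 2. Prdx6 and Prdx1 fill most of the peroxiredoxin bar in both libraries, with Prdx6 at 53.7 and 74.5%, and Gpx3 goes from 34.3% of the glutathione peroxidase bar in library 1 to 7.10% in library 2.

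By mean TPM the order of the members was Prdx6, Prdx1, Gpx1, Gpx2, Prdx5, Gpx4, Prdx2, Prdx3, Gpx3 and Prdx4. Library 2 gave the same order. In library 1 it was Prdx6, Prdx1, Prdx3, Prdx4, Prdx2, Gpx3, Prdx5, Gpx4, Gpx1 and Gpx2. Of the 45 pairs of members, 22 stood in the same order in both libraries. Among neighbours in the mean order, the library values of Prdx6 and Prdx1, and of Prdx1 and Gpx1, did not overlap, while those of the other neighbours did. The genes closest in level to Gpx1 over both libraries, measured as distance in log2 TPM among 15212 nuclear protein-coding genes, were Cd74 (distance 0.10), Krt18 (0.11) and Ethe1 (0.12). Those closest to Prdx6 were Agr2 (0.43), Pigr (0.54) and Tspan1 (0.72). Cd74 is the invariant chain of antigen presentation, Krt18 a keratin of simple epithelia, and Agr2 and Pigr are genes of mucus-secreting and antibody-transporting epithelium. The distances rest on 2 libraries of 1 mouse.

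Between the libraries, scaled to TMM effective sizes, 6 members were higher in library 2, Prdx1 was lower and 3 were not called. A gene was called at an adjusted p under 0.05 by an exact binomial test with Benjamini-Hochberg adjustment over 15711 genes and at least 2-fold. This test compares the reads of these libraries and not conditions. Over all genes tested, 37.0% were called higher and 28.2% lower, so calls were common across the transcriptome, and 13881 genes had an unadjusted p under 0.05. The median log2 ratio of the members was 2.76, against 0.12 over all genes tested. All 4 glutathione peroxidases were called higher, with a median of 4.52. Among the peroxiredoxins 2 were called higher and 1 lower, with a median of 0.12.

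Gpx2 was 43.6-fold higher in library 2 on scaled counts (log2 ratio 5.45 ± 0.18, counting SE). Gpx1 was 26.7-fold higher (4.74 ± 0.15), Prdx5 27.3-fold (4.77 ± 0.18) and Gpx4 19.7-fold (4.30 ± 0.18). Prdx2 was 8.42-fold higher (3.07 ± 0.10) and Gpx3 5.42-fold (2.44 ± 0.12). These 6 ratios were many times their counting errors. Prdx1 was lower in library 2 (-1.20 ± 0.02). For Prdx6 the log2 ratio was 0.39 ± 0.01 and for Prdx4 -0.57 ± 0.10, both under the required fold. For Prdx3 it was -0.16 ± 0.05. With total counts in place of TMM, which shifts all ratios by 0.75, the ratio of Prdx1 was -0.45 and no longer called, while that of Prdx6 was 1.14 and called.

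**Figure D3:**
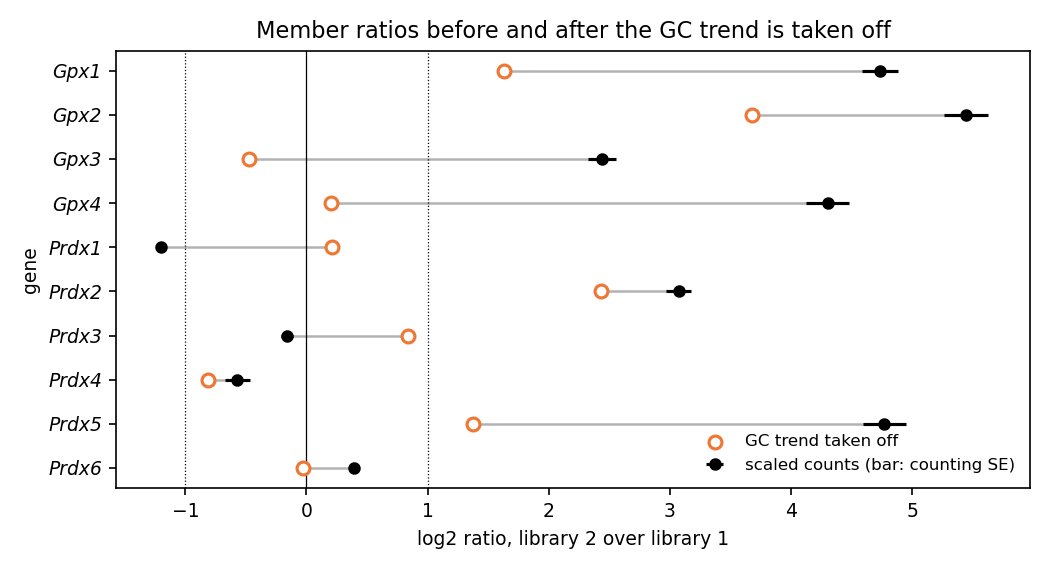
Log2 ratio of library 2 over library 1 for the 10 members, from scaled counts and with the trend on GC content taken off. The 4 glutathione peroxidases, Prdx2 and Prdx5 lie above 2 on scaled counts, and Gpx3, Gpx4, Prdx1 and Prdx6 lie within 0.5 of 0 once the trend is taken off.

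The ratio between the libraries moved with the GC content of the transcripts, across all genes and among the members. Over the 15654 genes with a GC value, the log2 ratio correlated with GC content at a Pearson r of 0.84 and a Spearman rho of 0.90. Over the 10 members these were 0.85 and 0.81. All points share the same 2 libraries and their depth, so these are descriptions. GC content was 43.5% in Prdx1, 45.5% in Prdx3, 50.05% in Prdx4 and 50.5% in Prdx6, the members that were not called higher. It was 51.2% in Prdx2, 53.8% in Gpx2, 55.9% in Gpx3, 56.3% in Gpx1, 56.8% in Prdx5 and 58.3% in Gpx4. All genes between 55 and 60% GC, a band of 2987 that holds Gpx1, Gpx3, Gpx4 and Prdx5, were called higher in 93.1% of cases. Genes between 40 and 45%, a band of 2943 that holds Prdx1, were called lower in 85.0% of cases. Between 50 and 55%, where Gpx2, Prdx2, Prdx4 and Prdx6 lie, 53.9% of 4178 genes were called higher. Apart from Prdx4 and Prdx6, the members in these bands were called in the direction of most genes of like GC content.

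**Figure D4:**
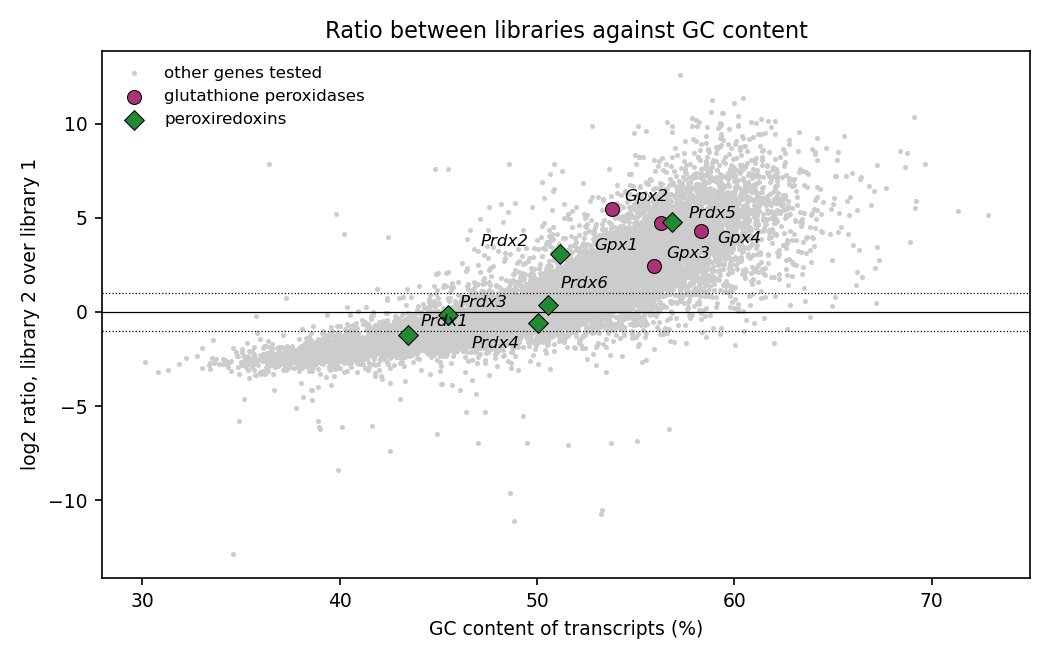
Log2 ratio of library 2 over library 1 against the GC content of the transcripts, for the genes tested (grey) and the 10 members, with dotted lines at 2-fold. Gpx2 and Prdx2 lie along the upper side of the grey cloud, and Gpx3 and Gpx4 lie within it.

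With the trend on GC content taken off the expected ratio, 4 members were called higher and 0 lower, where 12.4% of 15654 genes were called higher and 11.1% lower. Gpx2 kept a log2 ratio of 3.68, Prdx2 of 2.43, Gpx1 of 1.63 and Prdx5 of 1.37. Gpx4 came to 0.20, Gpx3 to -0.47, Prdx1 to 0.21, Prdx6 to -0.03, Prdx3 to 0.84 and Prdx4 to -0.82, and none of these 6 was called. The median of the glutathione peroxidases was then 0.92 and that of the peroxiredoxins 0.52. Thus Gpx2 and Prdx2 stood apart from genes of like GC content by more than the other members did. The part of GC content, of library preparation or of RNA quality in these ratios was not tested.

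Markers of other cell types also differed between the libraries. Red blood cell markers (Hbb-bs, Hba-a2, Hba-a1, Hbb-bt, Alas2 and Slc4a1) summed to 70.95 TPM in library 1 and 2803 TPM in library 2, and all 5 tested were called higher, with a median log2 ratio of 4.50 and of 3.19 with the GC trend off. Of these, Hba-a1 was listed at 0 in library 1, but its near-identical copy Hba-a2 had 163 counts there, so the pair is uncertain. Smooth muscle markers summed to 327 and 4791 TPM, and 6 of 6 were higher. Of 7 goblet cell markers 5 were higher and 0 lower, of 7 general epithelial markers 4 were higher and 1 lower (Cdh17, -1.23), and of 5 colonocyte markers 3 were higher and 1 lower (Slc26a3, -1.30). With the GC trend off these lists had 7, 2 and 2 markers higher and 0, 1 and 0 lower. The lower epithelial marker was then Epcam (-1.37, against -0.08 on scaled counts), while Cdh17 (-0.14) and Slc26a3 (0.20) were not called. Over all genes 37.0% were higher and 28.2% lower, and 12.4 and 11.1% with the GC trend off. Macrophage markers summed to 99.6 and 626 TPM, with 5 of 6 higher. Fibroblast markers summed to 661 and 837 TPM, but on the rescaled TPM to 2111 and 1111, with 1 higher and 2 lower of 6. With the GC trend off 0 fibroblast markers were higher and 3 lower (Col1a1, Col1a2 and Col3a1). The higher one, Col1a1 (1.67), was then at -2.68. Smooth muscle markers then had 5 higher and 0 lower, and macrophage markers 4 and 0. The part of these cell types in the levels of Prdx2, Gpx2 or any other member was not tested.

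The transcripts that carried each gene differed between the libraries as well. The shares below are the authors' estimates in percent of the gene, and in library 1 those of Gpx1, Gpx2, Gpx4 and Prdx5 rest on fewer than 100 counts. Gpx2 and Prdx3 each have 1 annotated transcript. Gpx1-201, the full-length form with the selenocysteine codon, held 94.6% of Gpx1 in library 1 and 45.5% in library 2. Gpx1-204 held 0 and 37.1%, and Gpx1-202 held 1.65 and 16.97%. Neither has an annotated selenocysteine codon, and their coding sequences of 435 and 432 bases are shorter than the 603 bases of Gpx1-201. Gpx4-202, which encodes the long form known to reach mitochondria and also holds the start of the cytosolic form, was listed at 0 in library 1 and held 80.1% in library 2. In library 1 the gene was instead assigned to Gpx4-205, a non-coding transcript, at 64.7%, and to Gpx4-207 at 35.3%. Gpx3-201 held 39.9 and 99.5% of Gpx3.

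Most Prdx6 RNA was assigned to transcripts that are not annotated as coding. Prdx6-208, annotated as a target of nonsense-mediated decay, held 77.8% of the gene in library 1 and 41.2% in library 2, and the processed transcript Prdx6-204 held 13.7 and 24.4%. The full-length coding transcript Prdx6-202 held 3.28 and 17.1%. All coding transcripts of Prdx6 together held 5.01 and 22.9%, the lowest coding share of the members in both libraries. This gene had 24126 and 42557 counts, so its shares do not rest on few reads. They do depend on transcript length and on how reads that match several transcripts were divided. In counts, Prdx6-202 had 1605 in library 1 and 14702 in library 2, against 19136 and 17913 for Prdx6-208. For Gpx4 the coding share was 35.3 and 98.7%, for Prdx2 73.9 and 79.5%, and for the other members it was at least 96.2% in both libraries. Prdx1-205 held 84.8 and 50.95% of Prdx1, and Prdx1-204 held 14.4 and 32.3%. Prdx5-204 held 90.2% of Prdx5 in library 1 and 4.69% in library 2, where Prdx5-201 held 58.4%. Prdx4-201 held 73.6 and 97.2% of Prdx4. For 8 members with several transcripts no test of shares was made, since there is 1 mouse.

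**Figure D5:**
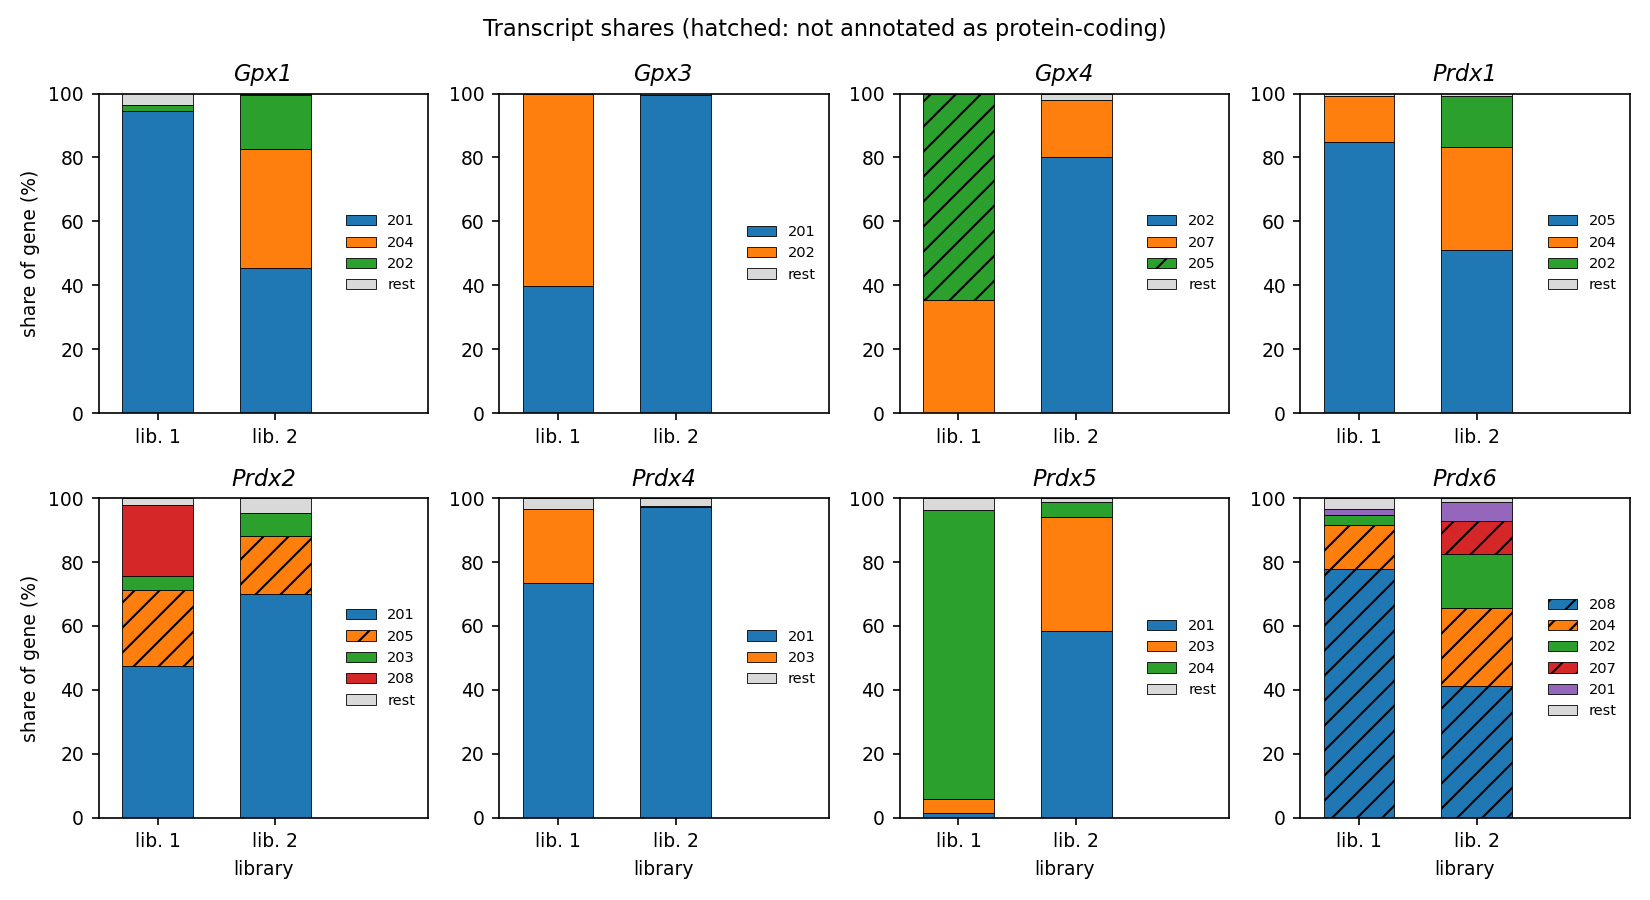
Share of each transcript in its gene, in percent, for the 8 members with more than 1 annotated transcript, in libraries 1 and 2. Prdx6-208 is the largest segment of Prdx6 in both libraries, at 77.8 and 41.2%, while the leading transcript of Gpx3, Gpx4 and Prdx5 differs between the libraries.

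On GRCm38 with GENCODE M21 all 10 are protein-coding genes. Gpx1 lies at chr9:108338903-108340343 and Gpx2 at chr12:76792333-76795554, and Gpx3 lies at chr11:54902453-54910377 and Gpx4 at chr10:80047166-80056439. Prdx1 lies at chr4:116685544-116700822, Prdx2 at chr8:84969587-84974834 and Prdx3 at chr19:60864051-60874556. Prdx4 lies at chrX:155323918-155340754, Prdx5 at chr19:6906697-6910106 and Prdx6 at chr1:161240112-161251219. Exons of Prdx2 overlap those of Rnaseh2a by 177 bases and of Junb by 173 on the opposite strand, and exons of Prdx5 overlap those of Trmt112 by 409. Junb had 22 counts in library 1 and 1991 in library 2, and Trmt112 had 39 and 340. No source used here gives the strand setting of the counting. Without strand, reads of these pairs may not be separable, and the values of Prdx2 and Prdx5 would be uncertain to that extent. The deposited posterior SD of the count was 0 in both libraries for Prdx5. For Prdx2 it was 0 in library 1 and 0.17 in library 2.

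Prdx1 is known as a target of Nrf2, the transcription factor that binds antioxidant response elements. RefSeq promoter windows on GRCm38.p6, running from 250 bases before to 50 after a start, were found for 9 of the 10 members and searched on both strands for TGACNNNGC, the core of that element. The match in the Prdx1 window is shown because it was the 1 match among the members.
Prdx1: cagggaaagcGCTGAGTCAtcccccgtag
The capitals mark the match, which lies on the minus strand at chr4:116685466-116685474, from 133 to 125 bases before the start. It overlaps TGAGTCA, the AP-1 motif. Over all genes 12.4% of 32817 windows held a match, so the letters alone are common. No binding was measured here.

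The genes that supply and restore both families were measured, with Nrf2 targets and related genes, from lists of 118 further genes, of which 112 were tested. Each gene counted once, 52 were higher in library 2, 24 were lower and 36 were not called, or 46.4 and 21.4% against 37.0 and 28.2% over all genes. With the GC trend off 21 were higher and 8 lower. The median log2 ratio was 0.73. Of the glutathione genes 10 of 16 were higher and 3 lower, with a median of 1.77 that came to -0.08 with the GC trend off. Dpep1, a dipeptidase that breaks down products of glutathione, was the highest of them in mean TPM and was higher, at 10.8 and 188 TPM (2.95). Gclm, a subunit of the rate-limiting enzyme of glutathione synthesis, was lower, at 49.2 and 59.5 TPM (log2 ratio -1.35). Gss, glutathione synthetase, was higher, at 4.37 and 82.3 TPM (2.75). With the GC trend off 3 of the glutathione genes were higher and 1 lower. Dpep1 was then at 1.28 and called higher, while Gclm (-0.82) and Gss (0.50) were not called. Gsr, which restores glutathione, was at 27.6 and 40.5 TPM and not called. Both Gclm and Gsr had higher TPM in library 2 but ratios below 0 on scaled counts.

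Of the thioredoxin and sulfiredoxin genes, which restore the peroxiredoxins, 5 of 14 were higher and 0 lower, with a median of 0.63. Over all genes 37.0% were higher and 28.2% lower, so the share called higher was near that of all genes. With the GC trend off 3 were higher and 0 lower (median 0.19), against 12.4 and 11.1% over all genes. Txn1, the cytosolic thioredoxin, was at 653 and 1146 TPM and not called, with a log2 ratio of -0.35. Txnip, a thioredoxin-binding protein, was at 242 and 939 TPM (0.74, not called). Txndc5, a thioredoxin-fold protein of the endoplasmic reticulum, was higher, at 21.5 and 215 TPM (2.18). Txndc17, a small cytosolic thioredoxin-like protein, was at 63.2 and 135 TPM (-0.03, not called). Once the GC trend was taken off, Txndc5 was at 0.97 and not called, and Txndc17 was at 1.29 and called higher. Txn1 stood just below Prdx1 in TPM in library 1 and between Prdx1 and Prdx6 in library 2. Of the 4 glutaredoxins 2 were lower and 0 higher, with a median of -0.39 that was 0.89 in the ratio of TPM. Glrx3 and Glrx2 were called lower, at log2 ratios of -1.14 and -1.25. Glrx, at 50.4 and 145 TPM, and Glrx5, at 17.4 and 57.8 TPM, were not called.

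Among superoxide dismutases, their copper chaperone and catalase, 3 of 5 were higher and 0 lower. With the GC trend off 3 were again higher and 0 lower, with Sod2 (1.18) called in place of Sod1 (0.84). Sod1, which makes hydrogen peroxide from superoxide in the cytosol, was higher, at 54.5 and 599.9 TPM (log2 ratio 2.32). Cat, the peroxisomal catalase that splits hydrogen peroxide, was at 37.9 and 46.3 TPM (-0.88, not called), and Sod2, the mitochondrial dismutase, at 19.7 and 32.2 TPM (-0.46, not called). Ccs, the copper chaperone of Sod1, was higher, at 0.10 and 45.9 TPM. Of the NADPH supply genes 4 of 9 were higher and 2 lower, and 2 higher and 0 lower with the GC trend off. The shares over all genes were 37.0 and 28.2%, and 12.4 and 11.1% with the GC trend off. On scaled counts the isocitrate dehydrogenases went opposite ways. Cytosolic Idh1 was lower, at 107 and 96.9 TPM (-1.31), and mitochondrial Idh2 was higher, at 1.67 and 85.2 TPM (4.50). With the GC trend off Idh1 was at 0.04 and not called, and Idh2 was at 1.86 and called higher. Pgd, of the pentose phosphate pathway, was higher, at 12.6 and 139 TPM (2.15, but 0.25 and not called with the GC trend off). The malic enzyme Me2 was not called, at 56.7 and 93.7 TPM (-0.45).

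Of the genes of selenium delivery and selenocysteine insertion, 4 of 13 were higher and 2 lower, with a median of -0.03 that was 1.05 in the ratio of TPM. Over all genes 37.0% were higher and 28.2% lower. With the GC trend off 1 gene of this list was higher and 0 were lower. Selenop, the plasma carrier of selenium, was at 1255 and 1298 TPM, above all 4 glutathione peroxidases in both libraries, and was called lower on scaled counts (-1.35). Rpl30, a ribosomal protein that also binds selenoprotein messages, was at 666 and 1090 TPM (-0.45, not called). Eif4a3, an RNA helicase, was higher, at 13.9 and 59.1 TPM (2.38), and Sephs2, which makes the selenium donor, was at 13.1 and 44.6 TPM (0.61, not called). Once the GC trend was taken off, Selenop was at 0.11 and Eif4a3 at 0.97, and neither was called. The other selenoprotein genes went both ways, with 6 of 13 higher and 4 lower. Selenof was lower, at 373 and 239 TPM (-1.45), and Selenot was lower, at 134 and 66.2 TPM (-2.19). Selenow was higher, at 1.06 and 137 TPM (5.82), as was Selenom, at 2.00 and 188 TPM (4.86). So on scaled counts the direction seen in the glutathione peroxidases was not that of every gene whose product carries selenocysteine. With the GC trend off 2 were higher and 1 lower (median -0.003), against 12.4 and 11.1% over all genes. Selenow was then at 2.24 and called higher, while Selenof (-0.19), Selenot (-0.08) and Selenom (-0.44) were not called. Selenov was at 0 in both libraries.

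Beyond the 4 members, the family also has Gpx5 to Gpx8. Gpx8, a protein of the endoplasmic reticulum, was at 18.3 and 15.4 TPM and called lower, and Gpx7 was at 0.26 and 3.64 TPM and called higher. Gpx7 had 7 counts in library 1 and 58 in library 2. With the GC trend off Gpx8 was at -0.16 and Gpx7 at -0.17, and neither was called. Gpx5 had 15 counts in library 1 and 0 in library 2, and Gpx6 was at 0 in both. Of Nrf2 regulators and targets other than the members, 6 of 16 were higher and 4 lower, with a median of 0.48 that came to -0.37 with the GC trend off. In that setting 2 were higher and 4 lower. Over all genes 37.0% were higher and 28.2% lower, and 12.4 and 11.1% with the GC trend off, so the share called higher was near that of all genes. Gstm1, a glutathione transferase, was higher, at 9.79 and 283 TPM (3.70). Cul3, a scaffold of the ubiquitin ligase that degrades Nrf2, was lower, at 151 and 76.3 TPM (-2.34). Once the GC trend was taken off, Gstm1 was at 2.03 and called higher, and Cul3 was at -0.24 and not called. Nfe2l2, which encodes Nrf2, was at 93.9 and 124 TPM and not called (-0.76). Txnrd1, the cytosolic thioredoxin reductase, was at 36.5 and 84.1 TPM (0.03, not called).

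Around Gpx4, 7 of 12 genes of lipid peroxidation were higher and 4 lower, where 37.0% of all genes were higher and 28.2% lower. Fth1, the ferritin heavy chain that stores iron, was higher, at 509 and 2545 TPM (1.17), and Tfrc, the transferrin receptor, was lower, at 135 and 72.1 TPM (-1.99). Acsl3, which activates fatty acids, was lower, at 497 and 152 TPM (-1.68). Ncoa4, which delivers ferritin for breakdown, was called lower on scaled counts (-1.07) but had higher TPM in library 2, at 71.2 and 83.2. With the GC trend off 0 genes of this list were higher and 1 was lower. Fth1 was then at -0.40, Tfrc at 0.22, Acsl3 at 0.57 and Ncoa4 at 0.21, and none of these was called. Alox12b was at 0 in both libraries. Around Prdx4, 6 of 12 genes of oxidative folding in the endoplasmic reticulum were higher and 5 lower. P4hb, a protein disulfide isomerase, was higher, at 55.8 and 310 TPM (1.25), and Pdia3, another, was lower, at 487 and 283 TPM (-1.87). Pdia6, of the same family, was higher, at 25.9 and 106 TPM (1.03), as was the sulfhydryl oxidase Qsox1, at 1.77 and 117 TPM (4.76). Of the 4 methionine sulfoxide reductases, which repair oxidised methionine, 2 were higher and 0 lower. Msrb1 (1.88 and 89.5 TPM) and Msra (3.95 and 22.2 TPM) were the higher ones, and Msrb3 (10.8 and 12.9 TPM) and Msrb2 (2.47 and 9.10 TPM) were not called. With the GC trend taken off, the medians of these 3 lists were 0.13, 0.06 and 0.22. Over all genes 12.4% were then higher and 11.1% lower. Of the oxidative folding genes 4 were then higher and 1 lower, and of the methionine sulfoxide reductases 1 and 0. P4hb was at -0.55 and not called, while Pdia3 was still called lower and Pdia6 and Qsox1 higher.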

How the data were processed

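The authors deposited gene and transcript tables for each library on mm10 with GENCODE M4, per text files deposited with them. The aligner, the quantifier and the counting by strand are in none of the sources used here. The deposited tables hold expected counts, which share reads among matching transcripts, and the authors' TPM and FPKM, per the file headers. Per the file headers, the share that a transcript takes of a gene is also given, in percent. The deposited posterior SD of the count was at most 0.29 for every member, so little sharing among genes entered these values.

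Annotation and coding sequences came from GENCODE M21 on GRCm38. All 46 member transcripts had the same length there. Expected counts were rounded, and the 15711 genes with a mean count of at least 10 were tested. With 1 library on each side edgeR's quasi-likelihood test has no residual degrees of freedom, so a two-sided exact binomial test was used, given TMM effective sizes (edgeR 4.0.16, R 4.3.3; library 2 over library 1 was 1.35) and Benjamini-Hochberg adjustment. Ratios used a prior count of 0.5, and SEs cover counting only. Trends on GC content and length were lowess fits (fraction 0.2, statsmodels 0.14.6, scipy 1.17.1, Python 3.11.15). The GC content of a gene weights each transcript by TPM. The test was tried on simulated counts. DESeq2 1.42.0 gave alternative size factors.

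The members, the lists and the tests were chosen with earlier results of these data known. Named genes were all members, the genes highest in mean TPM within each list (up to 4), genes at 0 in both libraries and the 3 genes nearest in level to Gpx1 and Prdx6. Transcripts were named from those with at least 5% of a gene in either library. The partners of overlapping genes, copies at 0 or with few counts, and marker genes of cell types are named outside that rule.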

Additional observations from a re-analysis of the deposited data

How the results depend on the processing

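The test could not be run with a library left out, and no paired analysis was possible because there is 1 group. Leaving out either library gave 22.3 to 885 TPM for the summed glutathione peroxidases and 1720 to 3649 TPM for the summed peroxiredoxins, which came to 5166 TPM as a mean over nuclear protein-coding genes. With the GC trend off, Gpx3 was at -0.47 and Prdx1 at 0.21, on the other side of 0. Gpx4 was at 0.20 there and not called. Ratios of TPM had no test, so a gene counted as called there at 2-fold or more alone. In the ratio of deposited TPM, Prdx3 was at 1.00 and so counted as higher. The members called lower numbered 0 with total counts, 0 with the GC trend off, 0 in the ratio of TPM and 3 with the length trend off, where Prdx3 was at -1.14 and Prdx4 at -1.87. Of the 112 pathway genes tested, 21 in place of 52 were higher with the GC trend off, and in place of 24 lower there were 8 with total counts, 8 with the GC trend off and 4 in the ratio of TPM. The causes were not tested. Total counts shifted the median of all genes by 0.75 and the ratio of TPM by 1.12, and 80.3 and 91.2% of calls were then higher, against 56.7% with TMM. Over the alternatives Gpx1 ranged from 1.63 to 6.26, Gpx2 from 3.68 to 6.61, Prdx2 from 1.96 to 4.08 and Prdx5 from 1.37 to 5.52, higher and called in each. Of 110 values of member ratios under alternatives, 94 kept their direction and call. With 63 to 214 counts in library 1, the values of Gpx1 to Gpx4, Prdx2 and Prdx5 rest on few reads there, their transcript shares most of all.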

Other observations

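Annotated copies were compared with the members by 31-base words. The pseudogene Gpx2-ps1 shared 54.7% of its words with Gpx2 and had 0 counts in both libraries. The pseudogene Gm21399 shared 52.6% with Prdx1 and had 9.05 counts in library 1 and 5 in library 2, against 11375 and 6650 for Prdx1. Fabp2, a fatty acid binding protein of the small intestine, made up most of a list of small intestinal markers that summed to 256 TPM in library 1 and 395 TPM in library 2, but to 817 and 524 when rescaled to the same sum of nuclear protein-coding genes. Acinar pancreas markers summed to 10.7 and 92.4 TPM, skeletal muscle markers to 0.21 and 31.9 TPM (Myh4 was at 0 in both), and adipocyte markers to 42.7 and 158 TPM. Endothelial markers summed to 14.7 and 79.7 TPM and enteric glial markers to 4.41 and 13.3 TPM. The 13 mitochondrially encoded protein genes were all called lower in library 2, with a median log2 ratio of -2.96. With the GC trend off 2 of them (mt-Co2 and mt-Co3) were called lower and the median was -0.63, and of all genes between 35 and 40% GC 98.6% were called lower without that step.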
